A study of Homo sapiens with 6 samples.

Results

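The YAP-TEAD target genes examined here are 10 genes widely used as transcriptional readouts of the coactivator YAP or as its feedback partners, namely CCN1 and CCN2 (also written CYR61 and CTGF), ANKRD1, AMOTL1, AMOTL2, AJUBA, LATS2, WWC1, NUAK2 and TEAD1. They were taken by name, and each was represented by its brightest probe set, on average over the 6 arrays, among those annotated with no other gene. A total of 9 of the 10 had such a probe set, out of 14232 genes on the array. AMOTL2, an angiomotin family member, had none, since its single probe set is annotated with a second gene as well, and it was therefore not measured. The arrays came from MO3.13, a human cell line labelled as an oligodendroglioma line. The first group of 3 arrays was from cells that received recombinant mouse Klotho, the anti-ageing protein best known as a co-receptor for FGF23, at 0.4 µg/mL in DMEM without serum for 3.5 h. The second group of 3 arrays was from control cells, for which the labels give only growth in DMEM with 10% fetal bovine serum, as they do for the Klotho cells before treatment. Serum-free medium is mentioned only for the Klotho group, so the protein and the loss of serum cannot be told apart in this comparison. Whether the 3 arrays of each group came from separate cultures is not stated, so the p-values measure a spread between samples that may be technical.

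In the Hippo pathway, the kinases MST1 and MST2 (genes STK4 and STK3) activate LATS1 and LATS2, which phosphorylate YAP and its relative TAZ and keep them in the cytoplasm. Unphosphorylated YAP and TAZ enter the nucleus, bind the TEAD transcription factors and raise the transcription of target genes. Cell spreading, a stiff substrate and the serum lipids lysophosphatidic acid and sphingosine-1-phosphate are known to favour nuclear YAP, and several targets, among them LATS2 and the angiomotins, feed back to restrain it.

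TEAD factors recognise the bases GGAATG, and the promoters of the members with 2 or more copies of these letters are shown. RefSeq promoters (GRCh38.p14) were matched by symbol for 8 of the 10 genes, and the 250 bases before each start were searched on both strands for GGAATG, whose reverse complement is CATTCC. CCN1 and TEAD1 had no entry among these promoters and were not searched. CCN2 held 3 copies, at positions -169, -104 and -95 from the start. ANKRD1 held 2, at -220 and -128, and NUAK2 held 2, at -197 on the opposite strand and at -18. Among 35116 promoters of the same length, 11.9% held at least 1 copy, 0.94% at least 2 and 0.0826% at least 3. The sequences run 5′ to 3′ on the gene's strand, with the matches in capitals. They lie at chr6:131951373-131951622 (minus strand) for CCN2, chr10:90921088-90921337 (minus strand) for ANKRD1 and chr1:205321746-205321995 (minus strand) for NUAK2.
CCN2: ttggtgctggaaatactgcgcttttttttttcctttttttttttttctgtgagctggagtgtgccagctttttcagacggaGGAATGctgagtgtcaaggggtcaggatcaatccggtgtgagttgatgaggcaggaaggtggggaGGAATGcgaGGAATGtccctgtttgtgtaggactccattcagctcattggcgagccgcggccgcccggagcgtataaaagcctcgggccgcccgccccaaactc
ANKRD1: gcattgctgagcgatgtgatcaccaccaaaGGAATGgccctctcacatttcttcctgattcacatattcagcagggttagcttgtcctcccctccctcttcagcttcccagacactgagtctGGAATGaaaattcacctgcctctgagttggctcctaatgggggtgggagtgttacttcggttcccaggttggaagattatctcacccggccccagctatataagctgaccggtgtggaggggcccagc
NUAK2: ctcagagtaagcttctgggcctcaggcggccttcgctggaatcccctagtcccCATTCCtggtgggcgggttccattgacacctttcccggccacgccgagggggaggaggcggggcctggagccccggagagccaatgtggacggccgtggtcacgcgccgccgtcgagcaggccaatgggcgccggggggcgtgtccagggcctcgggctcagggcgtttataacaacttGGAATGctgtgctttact
AJUBA had 1 copy before the second of its 2 listed starts, and AMOTL2 likewise. AMOTL1, LATS2 and WWC1 had none in this window. AP-1 sites often lie near TEAD sites. The pattern TGANTCA, where N is any base, was searched for as well, and it reads the same on both strands. It is wider than the usual AP-1 motif, which has C or G at N. The pattern occurred before 1 of the 10 starts, that of ANKRD1, against 6.57% of all promoters. There it read TGATTCA, which is not the usual motif. A match is a description of the letters and not evidence of binding.

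For none of the 9 measured YAP-TEAD targets did the difference between Klotho and control cells pass the test against the spread between arrays. In limma, 0 of the 9 passed an adjusted p of 0.05, as did 0% of all 22011 probe sets, and all 9 had the same adjusted p of 0.998. The minimum over all probe sets was an adjusted p of 0.343 in limma. Likewise 0 of 9 had an unadjusted p under 0.05, against 2.07% of all genes. The largest difference was that of ANKRD1, at -0.13 on the log2 scale, a ratio of 0.911 of Klotho over control. The 95% interval of the difference contained 0 for all 9 genes, and all 9 intervals stayed inside a 1.5-fold change up or down, as did those of 91.7% of all genes tested. The bounds reached -0.44 for CCN1 on the low side and 0.33 for TEAD1 on the high side. All 9 probe sets were brighter than the lower quartile of mean signal over all probe sets (4.70 on the log2 scale), and 7 were brighter than the median (6.40). No detection calls were at hand. The values below are log2 signals, in which 1 unit is a doubling of signal, and levels of different genes are not comparable since probes differ in brightness.

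CCN1 and CCN2 encode secreted matricellular proteins that bind integrins and growth factors, and they are the targets most often measured as a readout of YAP. CCN1 read 7.63, 7.84 and 8.09 on Klotho arrays 1, 2 and 3, against 7.99, 7.76 and 8.08 on control arrays 1, 2 and 3. The lowest and the highest of the 6 values were both Klotho arrays, and the groups overlapped throughout. CCN1 averaged 7.86 ± 0.23 in Klotho cells and 7.94 ± 0.16 in control cells (log2 signal, SD, n = 3 each), a difference of -0.09 with a 95% interval of -0.44 to 0.26. It had the widest span over the 6 arrays among the members, at 0.46. CCN2 read 8.52, 8.67 and 8.63 on the Klotho arrays, against 8.58, 8.59 and 8.72 on the control arrays. Its span of 0.20 was the narrowest among the members. CCN2 averaged 8.61 ± 0.08 in Klotho cells and 8.63 ± 0.08 in control cells (log2 signal, SD, n = 3 each), a difference of -0.02 (95% interval -0.23 to 0.18). CCN2, whose promoter holds the 3 GGAATG copies shown above, thus differed by less than the SD within each group.

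ANKRD1 encodes a nuclear and sarcomeric ankyrin repeat protein of muscle, induced by stretch and by YAP. It read 9.89, 10.02 and 10.17 on the Klotho arrays, against 10.06, 10.32 and 10.10 on the control arrays. The highest value was control array 2 and the lowest Klotho array 1, with the other 4 interleaved. ANKRD1 averaged 10.03 ± 0.14 in Klotho cells and 10.16 ± 0.14 in control cells (log2 signal, SD, n = 3 each), and the interval of the difference of -0.13 ran from -0.41 to 0.14.

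**Figure D1:**
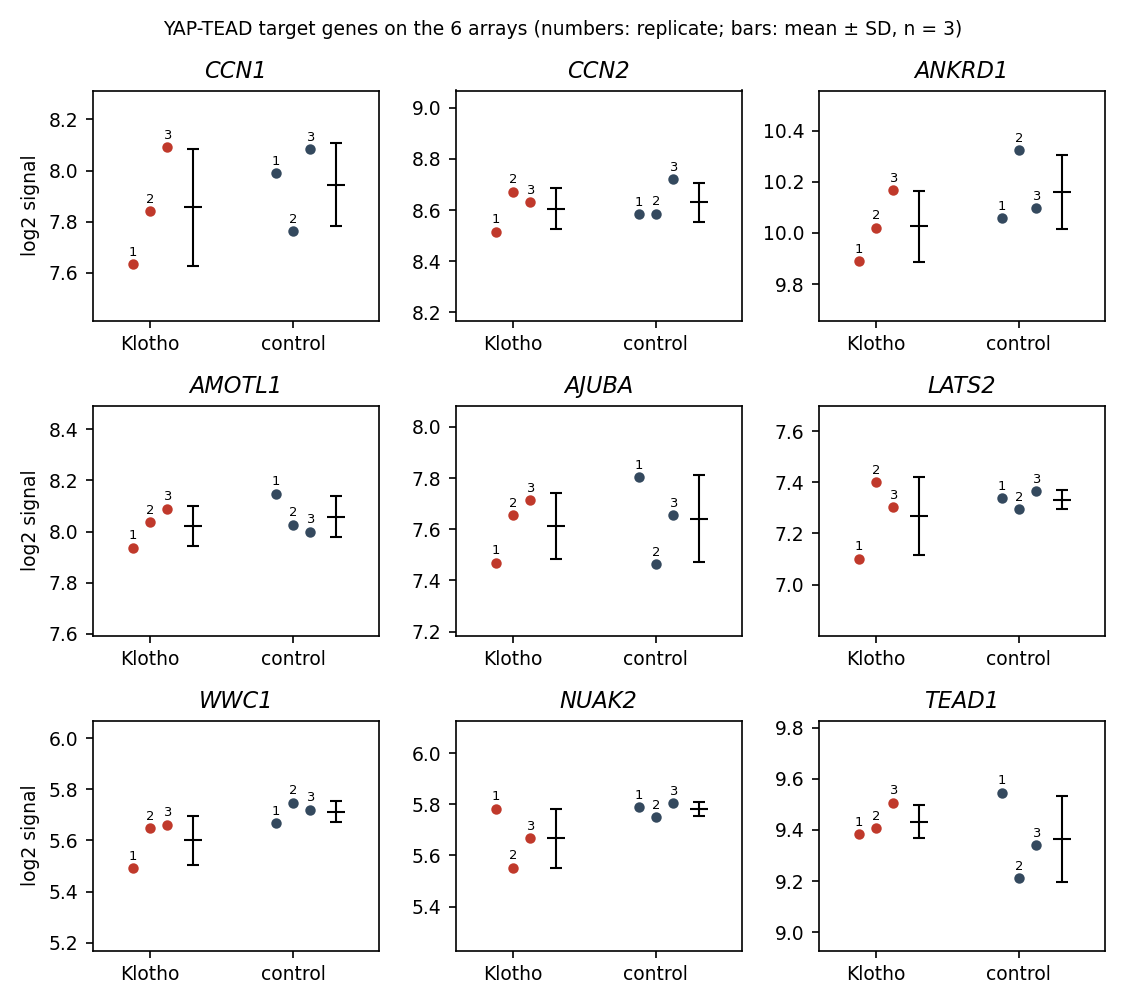
Log2 signal of the 9 measured YAP-TEAD targets on the 3 Klotho arrays (red, left) and the 3 control arrays (blue, right), with replicate numbers and, beside each group, the mean and SD (n = 3). Every panel spans 0.9 log2 units, and the groups overlap in all genes but WWC1, whose Klotho values end at 5.66 and whose control values begin at 5.67.

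The next 4 genes encode proteins that act on YAP or on the kinases above it. AMOTL1, an angiomotin that binds the WW domains of YAP, read 7.94, 8.04 and 8.09 on the Klotho arrays, against 8.15, 8.03 and 8.00 on the control arrays. Its groups overlapped, with means of 8.02 ± 0.08 in Klotho cells and 8.06 ± 0.08 in control cells (log2 signal, SD, n = 3 each). The difference was -0.04 (95% interval -0.24 to 0.17). AJUBA, a LIM domain protein that binds and inhibits LATS kinases, read 7.47, 7.65 and 7.71 on the Klotho arrays, against 7.80, 7.46 and 7.65 on the control arrays. The highest and the lowest AJUBA values were both control arrays, and the difference was -0.03 (95% interval -0.31 to 0.26).

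LATS2, a kinase that phosphorylates YAP and is itself a YAP target, read 7.10, 7.40 and 7.30 on the Klotho arrays, against 7.34, 7.29 and 7.37 on the control arrays. Klotho array 2 was the highest and Klotho array 1 the lowest of the 6, so that the SD was 0.15 in Klotho cells and 0.04 in control cells. The difference of the LATS2 means was -0.07 (95% interval -0.30 to 0.17). WWC1, also known as KIBRA, a scaffold with WW domains that promotes LATS activation, read 5.49, 5.65 and 5.66 on the Klotho arrays, against 5.67, 5.75 and 5.72 on the control arrays. It was the only member whose groups did not overlap (1 of 9, against 7.89% of all genes), and the gap between Klotho array 3 and control array 1 was smaller than the SD of either group. WWC1 averaged 5.60 ± 0.10 in Klotho cells and 5.71 ± 0.04 in control cells (log2 signal, SD, n = 3 each), with a difference of -0.11 (95% interval -0.31 to 0.09). The groups overlapped after each array was centred on its median, after quantile normalization and after cyclic loess.

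NUAK2 encodes an AMPK-related kinase that supports YAP activity. It read 5.78, 5.55 and 5.67 on the Klotho arrays, against 5.79, 5.75 and 5.80 on the control arrays. Klotho array 2 was lowest, whereas Klotho array 1 lay among the controls. The means were 5.67 ± 0.12 in Klotho cells and 5.78 ± 0.03 in control cells (log2 signal, SD, n = 3 each), with a difference of -0.11 (95% interval -0.32 to 0.10). TEAD1, the DNA-binding partner through which YAP reaches these promoters, was the only member with a mean higher in Klotho cells. It read 9.38, 9.41 and 9.51 on the Klotho arrays, against 9.55, 9.21 and 9.34 on the control arrays. The control values enclosed all Klotho values, and the difference was 0.07 (95% interval -0.19 to 0.33). A second probe set annotated with TEAD1 alone read 9.08, 9.12 and 9.39 on the Klotho arrays, against 9.46, 9.22 and 9.09 on the control arrays. Its difference was -0.06 (95% interval -0.38 to 0.26), of opposite sign, and both intervals contained 0.

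**Figure D2:**
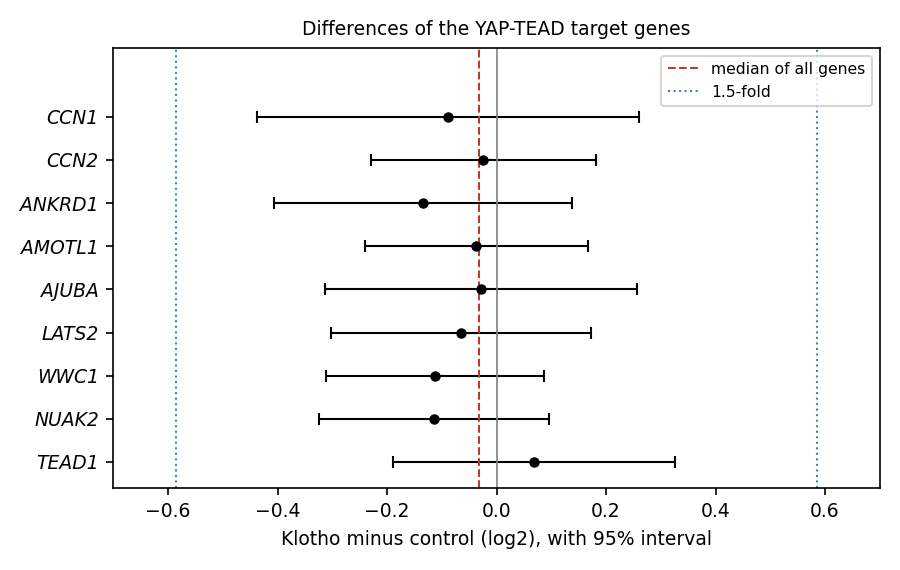
Klotho minus control difference in log2 signal for the 9 measured YAP-TEAD targets (points) with 95% intervals from limma (bars). All intervals contain 0 and end inside the dotted lines at a 1.5-fold change, and the dashed line marks the median of all genes (-0.03).

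As deposited, 8 of the 9 members were lower in Klotho cells, against 62.6% of all genes, and 1 was higher, against 37.4%. The median difference was -0.07 for the members and -0.03 for all genes. Of the arrays left out in turn, Klotho array 1 moved this count the most. On that array 8 of 9 members, and 61.2% of all genes, lay below their own mean over the 6 arrays. Without Klotho array 1, 3 of 9 members (ANKRD1, WWC1 and NUAK2) were lower, and the median was 0.02 for the members and -0.02 for all genes. The count also moved with the scaling of the arrays: 5 of 9 were lower after median centring and after cyclic loess, and 4 of 9 after quantile normalization. All genes moved with the scaling too. With median centring the median was -0.02 for the members and 0.02 for all genes. With quantile normalization these medians were 0.00 and 0.01, and with cyclic loess -0.002 and -0.0007.

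For 7 of 9 genes the difference of the group means was smaller than the pooled SD within groups, WWC1 and NUAK2 being the exceptions. Klotho array 1 was the lowest of the 6 arrays for 6 of 9 members, and it was the lowest for 28.5% of all genes. The mean deviation of the members from their own 6-array means was -0.13 on Klotho array 1, against -0.04 for all genes on that array. It was -0.01 on Klotho array 2 and 0.05 on Klotho array 3, and 0.06, -0.02 and 0.05 on control arrays 1, 2 and 3. Klotho array 3 and control arrays 1 and 3 thus stood above the mean and control array 2 slightly below it. Over all genes the mean deviations were -0.01 and 0.00 on Klotho arrays 2 and 3, and 0.05, -0.03 and 0.02 on control arrays 1, 2 and 3. The part of this array pattern in the group differences was not tested.

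**Figure D3:**
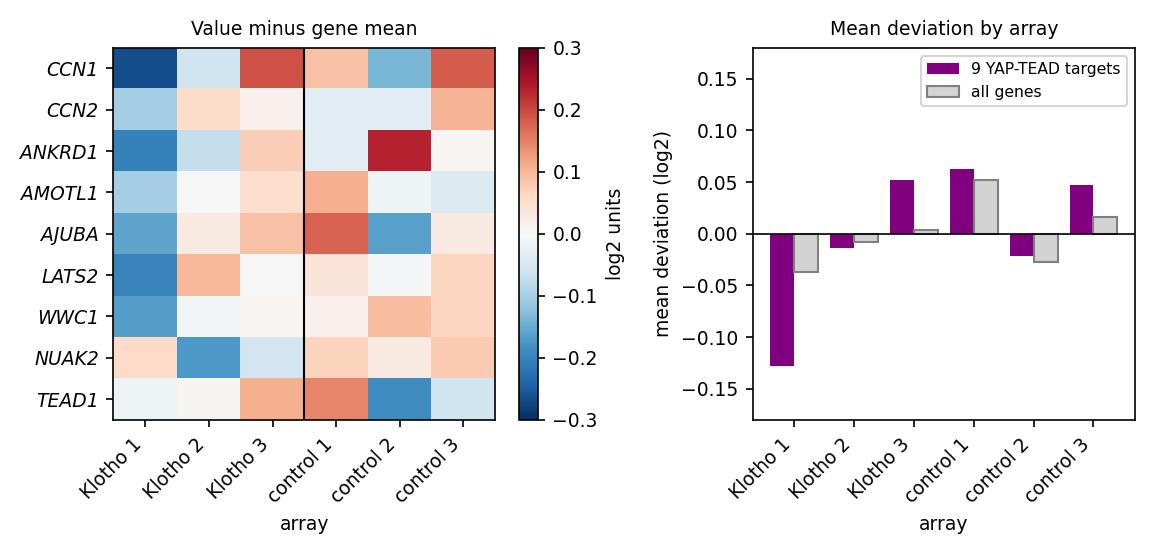
Left, each member's log2 signal minus its mean over the 6 arrays, Klotho arrays left of the line and control arrays right of it. Right, the mean of these deviations per array for the 9 targets (purple) and for all 14232 genes (grey), with Klotho array 1 at -0.13 for the targets and -0.04 for all genes.

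Among pairs of members, CCN2 and LATS2 had the most similar values over the 6 arrays after each gene was centred on its mean, with a root-mean-square difference of 0.06 in log2 units. ANKRD1 and TEAD1 were the least alike, at 0.21, since control array 2 was the highest for ANKRD1 and the lowest for TEAD1. CCN1, the member with the widest span, was set against all other genes by the same measure. The closest were PIK3CB, the gene of a PI3-kinase catalytic subunit, with a root-mean-square difference of 0.022, then FAM200C (0.035), ZFP69B (0.037), TPRKB (0.038) and MB21D2 (0.040). PIK3CB read 6.60, 6.75 and 7.03 on the Klotho arrays, against 6.91, 6.72 and 7.00 on the control arrays. This likeness over 6 arrays is a description only.

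The factors that drive these targets were measured in the same cells. YAP1 read 8.39, 8.43 and 8.41 on the Klotho arrays, against 8.56, 8.31 and 8.39 on the control arrays. Its difference was -0.01 (95% interval -0.23 to 0.21), with all Klotho values inside the control range. WWTR1, the gene of TAZ, read 10.46, 10.44 and 10.42 on the Klotho arrays, against 10.41, 10.42 and 10.45 on the control arrays. All 6 TAZ values lay between 10.41 and 10.46, and the difference was 0.01 (95% interval -0.16 to 0.18). The other TEAD genes differed by 0.01 (TEAD2), 0.04 (TEAD3) and -0.08 (TEAD4). Of the 8 measured YAP, TAZ, TEAD and VGLL genes, 5 were lower and 3 higher in Klotho cells as deposited, where 62.6% of all genes were lower. Under each of the 3 other scalings 3 were lower, while the median of all genes rose to between -0.0007 and 0.02. In limma 0 passed the adjusted threshold or an unadjusted p under 0.05. The VGLL genes encode vestigial-like cofactors that compete with YAP for TEAD. VGLL3 differed by -0.20 (95% interval -0.65 to 0.24) and VGLL1 by -0.08, both from probe sets below the lower quartile of signal. These are transcript levels, and YAP is controlled largely by phosphorylation and location, which arrays do not measure.

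Upstream, 20 of the 22 measured genes of the Hippo kinase cascade and its regulators were lower in Klotho cells and 2 higher, where 62.6% of all genes were lower, with a median difference of -0.08 against -0.03 for all genes. Under the other scalings 14 to 16 of 22 were lower, with medians of -0.04 to -0.03. The median of all genes rose as well under these scalings, to between -0.0007 and 0.02. The median of the Hippo list was -0.05 without Klotho array 1 (-0.02 for all genes) and -0.13 without Klotho array 3 (-0.04 for all genes). It was -0.12 without control array 2 (-0.06 for all genes) and -0.12 without control array 3 (-0.03 for all genes). Without Klotho array 2 it was -0.09 (-0.03 for all genes), and without control array 1 it was -0.06 (-0.01 for all genes). In limma 0 of 22 passed the adjusted threshold, 2 had an unadjusted p under 0.05 (2.07% of all genes did), and the 3 Klotho values lay below all 3 control values for 5 genes (DCHS1, STRN4, TAOK2, NF2 and SCRIB), against 5.3% of all genes. DCHS1, the protocadherin Dachsous that signals to the pathway through FAT4, read 7.33, 7.44 and 7.41 on the Klotho arrays, against 7.71, 7.56 and 7.59 on the control arrays. The groups did not overlap, and the difference was -0.23 (95% interval -0.42 to -0.03; adjusted p = 0.998 in limma). STRN4, a scaffold of the STRIPAK phosphatase complex that counteracts MST kinases, differed by -0.19 (95% interval -0.36 to -0.01), again with groups that did not overlap. The kinase genes TAOK1 and TAOK2, whose products can activate the cascade, differed by -0.26 (95% interval -0.64 to 0.12) and -0.14 (95% interval -0.33 to 0.04). NF2, the tumour suppressor merlin, differed by -0.14, and the polarity gene SCRIB by -0.11; both are named after their values were seen. LATS1, the partner kinase of LATS2, LIMD1, WTIP and STRN lacked an own probe set and were not measured.

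Other genes used as YAP or TAZ readouts were examined for comparison. Of 14 measured genes that complete a published 22-gene YAP/TAZ signature, 11 were lower and 3 higher in Klotho cells (62.6% of all genes were lower), 0 passed the adjusted threshold in limma and 1 had an unadjusted p under 0.05 (2.07% of all genes did). The list's median was -0.07 as deposited (-0.03 for all genes). It was -0.03 without Klotho array 1 (-0.02 for all genes) and -0.03 without control array 1 (-0.01 for all genes). The other arrays left out in turn gave -0.10 (without control array 2, -0.06 for all genes) to -0.07 (without control array 3, -0.03 for all genes). Under each of the 3 other scalings 9 of 14 were lower, with a median of -0.02, against -0.0007 to 0.02 for all genes. The gene with the small p was CCDC80, which encodes a secreted matrix protein. CCDC80 read 5.84, 5.82 and 6.16 on the Klotho arrays, against 6.44, 6.54 and 6.41 on the control arrays. It lay apart from every YAP-TEAD member in size, with a difference of -0.52 (95% interval -0.80 to -0.25), yet its adjusted p in limma was 0.998. The signature genes next in p were DOCK5 (-0.16), FJX1 (-0.11) and ARHGEF17 (-0.08). FOXF2 and PTPN14 were not measured.

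A further 7 measured readout genes had a median difference of -0.10, or 0.00 without Klotho array 1 (-0.03 and -0.02 for all genes). The other arrays left out in turn gave -0.16 (without Klotho array 3, -0.04 for all genes) to -0.05 (without control array 1, -0.01 for all genes). Under the 3 other scalings the list's median was -0.05 to -0.04, against -0.0007 to 0.02 for all genes. Of these 7 genes, 4 were lower and 3 higher (62.6% of all genes were lower). In limma 0 passed the adjusted threshold or an unadjusted p under 0.05. THBS1, the matricellular protein thrombospondin 1, read 7.40, 7.77 and 8.03 on the Klotho arrays, against 8.14, 7.74 and 7.82 on the control arrays. Klotho array 1 was its lowest value, as for CCN1, and the difference was -0.17 (95% interval -0.62 to 0.28). The GTPase-activating protein genes DLC1 and ARHGAP29 differed by -0.15 and -0.13, and the focal adhesion gene TNS3 by -0.10. Close relatives of the members were 3 lower and 3 higher among 6 measured genes (1 lower with median centring), with a median of 0.00 and 0 past either threshold. CCN5 (0.12), NUAK1 (-0.09), CCN3 (-0.04) and CCN4 (0.03) had the smallest unadjusted p among them in limma, from 0.33 to 0.85. ANKRD23 was not measured.

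**Figure D4:**
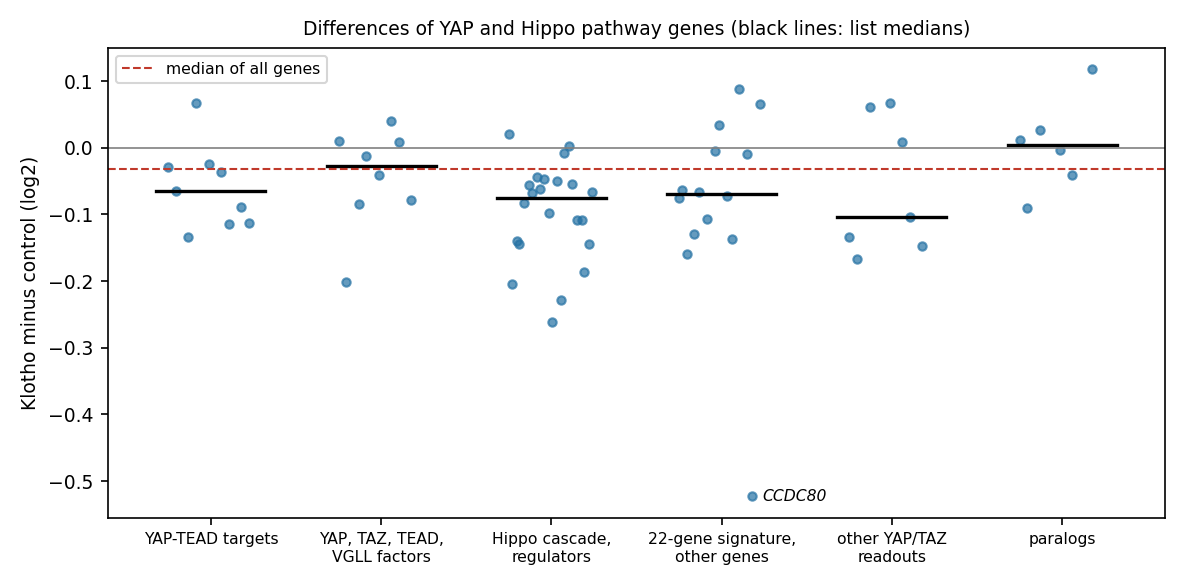
Klotho minus control difference in log2 signal for each measured gene (points) of the YAP-TEAD targets and 5 related lists, with the list medians (black lines) and the median of all genes (dashed line, -0.03). All points but CCDC80, at -0.52, lie between -0.26 and 0.12, and no gene shown passed the adjusted threshold.

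The array medians lay between 6.36 and 6.47, and arrays correlated at 0.987 to 0.991 within groups and 0.985 to 0.991 between groups across probe sets. Of 7 measured oligodendrocyte markers, MBP, MOG, MAG, OLIG1, OLIG2 and SOX10 lay below the median signal of all probe sets and CNP above it, and 0 passed the adjusted threshold. The skeletal muscle and rhabdomyosarcoma markers MYOD1, MYOG, DES, CHRNA1, CHRND and TNNT1 lay above that median and MYF5 and NCAM1 below it. Of the 8 muscle genes 6 were lower and 2 higher in Klotho cells, where 62.6% of all genes were lower. In limma 0 passed the adjusted threshold, and DES alone (1 of 8) had an unadjusted p under 0.05, against 2.07% of all genes. DES, the muscle intermediate filament gene, differed by -0.27 (95% interval -0.47 to -0.06) and the adhesion molecule gene NCAM1 by -0.16 (95% interval -0.35 to 0.03). For both (2 of 8) all Klotho values lay below control, as for 5.3% of all genes, whereas CHRNA1 differed by 0.01. The mean of the oligodendrocyte list was 5.81 to 6.01 on the Klotho arrays and 5.86 to 5.96 on the control arrays, and that of the muscle list was 8.32 to 8.34 on the Klotho arrays and 8.34 to 8.48 on the control arrays. Most oligodendrocyte markers thus lay below the median and most muscle markers above it, while 1 marker of each list lay below the lower quartile. These positions alone do not decide the cell type, since levels of different genes are not comparable and no detection calls were at hand. ANKRD1 is known chiefly as a muscle gene, and the part of the muscle programme in the levels of the YAP-TEAD targets was not tested. In RNA from whole cultures, fewer cells of one state and less transcript per cell cannot be told apart.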

How the data were processed

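RNA from MO3.13 cells (3 Klotho and 3 control samples, grouped by the treatment label) was amplified from 100 ng per the labels' protocols. The authors deposited 1 table of log2 signals for 22011 probe sets; the submitters' processing notes name RMA, with no version, software or filter given in the sources used here. Of the probe sets, 14432 had 1 gene symbol, 2408 several and 5171 none; 14404 of the first matched RefSeq (GRCh38.p14) by Entrez number. All were fitted with limma 3.58.1 in R 4.3.3 (lmFit, eBayes, 2-sided), with Benjamini-Hochberg adjustment and a threshold of 0.05, and the fit was tested on simulated data. Precision is limited by the number of arrays, and depth does not apply.

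The members, lists and tests were chosen with earlier results of these data known. Named genes are all members, YAP1, WWTR1, TEAD2 to TEAD4, CCDC80, the 4 genes of smallest p per list and the 5 genes most like CCN1, besides the cell type markers and, chosen after their values were seen, NF2 and SCRIB. Same-numbered arrays did not deviate together (r = -0.18, 0.06 and -0.14 for numbers 1, 2 and 3), so the numbers were not taken as pairs. Alternatives were 3 scalings, a filter on dim probe sets, variance models, array weights, a replicate block, other probe set rules and leaving out each array.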

Additional observations from a re-analysis of the deposited data

How the results depend on the processing

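No member and no probe set passed the adjusted threshold under any of the 16 alternatives, and 0 members had an unadjusted p under 0.05 (limma); the smallest adjusted p of a member was 0.676. Of 144 member differences recomputed, 125 kept their sign. The number of members lower in Klotho cells was 8 as reported, 5 with median centring, 4 with quantile normalization and 5 with cyclic loess, and ranged from 3 (without Klotho array 1) to 9 (without control array 2) when arrays were left out. The median of the members ranged from -0.084 to 0.018 with arrays left out, and that of all genes from -0.061 to -0.0067. Under the 3 scalings the median of all genes was 0.018 (median centring), 0.0065 (quantile normalization) and -0.0007 (cyclic loess). Members whose groups did not overlap numbered 1 as reported, 0 under each of the 3 scalings, and 1 to 2 with arrays left out. The replicate block left the 0 calls and the 8 lower members as they were.

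The sign turned for several differences near 0, and the cause was not tested. With median centring these were AJUBA (0.021), AMOTL1 (0.013), CCN2 (0.026) and YAP1 (0.037), with quantile normalization AJUBA (0.036), AMOTL1 (0.029), CCN2 (0.021), LATS2 (0.0041) and YAP1 (0.040), and with cyclic loess AJUBA (0.036), AMOTL1 (0.024), CCN2 (0.028) and YAP1 (0.042). With array quality weights WWTR1 was -0.00039 and YAP1 0.016. With each array left out in turn the difference ranged from -0.12 to 0.053 for AJUBA, -0.071 to 0.0083 for AMOTL1, -0.21 to 0.022 for CCN1, -0.057 to 0.021 for CCN2, -0.13 to 0.018 for LATS2, -0.0095 to 0.16 for TEAD1, -0.0026 to 0.020 for WWTR1 and -0.070 to 0.059 for YAP1. ANKRD1, WWC1 and NUAK2 were lower in Klotho cells under all 16 alternatives, but their size moved: ANKRD1 was -0.052 without control array 2, -0.066 without Klotho array 1 and -0.20 without Klotho array 3, WWC1 -0.057 without Klotho array 1, and NUAK2 -0.057 without Klotho array 2 and -0.17 without Klotho array 1. With 3 arrays per group, the standard errors of the member differences were 0.08 to 0.15 in log2 units, and no detection calls were at hand.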
